A study of Mus musculus with 8 samples.

Results

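The genes described here build or control the contacts between epithelial cells, and the list holds 10 of them: Cdh1, Epcam, Cldn3, Cldn4, Cldn6, Cldn7, Ocln, Dsp, Spint1 and Esrp1. They were taken by name, through the gene symbol of each array probe or an older synonym of it. For 9 of the 10 genes 1 probe each was found, among 16390 different gene symbols on the arrays. Epcam is listed on the arrays as Tacstd1 and Esrp1 as Rbm35a. No named probe was found for Cldn3, whose level was not analysed here. RNA was measured on 8 one-colour oligonucleotide arrays in mouse cells with a Nanog-GFP reporter, in 4 groups of 2 arrays. The groups are primordial germ cells, the precursors of sperm and eggs, named for the embryonic day (E11.5 PGC), cells cultured for 3 days (Day3) or for 6 days (Day6), and embryonic germ (EG) cells, a pluripotent kind of cell that germ cells give rise to in culture. The cultured groups and EG cells are named for the inhibitor mix 2i+A83, which the labels give as 1 µM PD325901 (against MEK), 3 µM CHIR99021 (against GSK3) and 250 nM A83-01 (against the Activin, Nodal and TGF-beta type I receptors). The same culture text, with LIF, bFGF and 15% serum replacement, is given for every sample, also for the primordial germ cells, and leaves unclear which cells had met the inhibitors. Candidate pluripotent cells were sorted by flow cytometry, per the design text, and the gate is not given there. The labels do not say whether the 2 arrays of a group come from separate animals, cultures or lines, so the tests below measure only the spread between these arrays.

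Epithelial cells adhere through 3 kinds of contact. Adherens junctions are built on E-cadherin (Cdh1). Tight junctions seal the space between cells with claudins and occludin (Ocln), and desmosomes tie the keratin network of neighbouring cells together through desmoplakin (Dsp). Epcam is a homophilic adhesion protein of the cell surface that binds claudin-7. Spint1 is a membrane inhibitor of serine proteases such as matriptase, and Esrp1 is an RNA-binding protein that selects epithelial splice forms. Mouse germ cells carry E-cadherin and Epcam although they form no epithelium, and mouse pluripotent stem cells grow as E-cadherin-bound colonies.

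The scaled intensities had medians of 19.99 to 20.01 on the 8 arrays, and 21126 to 22404 of 23473 probes had a value on each; the probes of the 9 genes had a value on all of them. The 10 germ cell markers had a summed intensity of 17690 and 10553 on the E11.5 PGC arrays, 8284 and 6913 on those of Day3, 1461 and 3622 on those of Day6, and 2133 and 1766 on the EG arrays. That of the 8 pluripotency markers was 3718 and 3693, 12081 and 11172, 14702 and 18362, and 10421 and 14332 in the same order. The 10 gonadal somatic markers summed to 47.7 to 81.2 over all arrays. Those of the coelomic epithelium (6 of 7 with a probe) summed to 40.4 and 52.4 in the E11.5 PGC group, 58.5 and 54.4 after 3 days, 207 and 57.9 after 6 days, and 156 and 192 in EG cells. Most of the later sums came from 1 gene, the mesothelial Msln, with 180 and 30.4 after 6 days and 131 and 170 in EG cells, beside 5.46 and 6.42 in the E11.5 PGC group; the epithelial keratin Krt19 lay between 4.6 and 10.6 on all arrays. The sum of the 11 fibroblast markers was highest on 1 array, with 2692 on Day6 replicate 1 and 163 on replicate 2. It was 113 and 162 in primordial germ cells, 313 and 458 after 3 days, and 1060 and 372 in EG cells. Most of the 2692 came from S100a4 (1335) and Thy1 (747). Acta2, Col1a1 and Col1a2 were also brightest on that array (198, 43.5 and 129). Dcn and Col3a1 were brighter on Day3 replicate 2 (173 and 137) than there (68.2 and 101). Pdgfrb lay between 28.5 and 44.2 on all arrays. In EG cells S100a4 had 808 and 190. The array names fall into 2 series, A, with the first replicate of the germ cells and of each culture day plus all EG arrays, and B, with the other replicates. The tests are given without a term for that series and, where it changes a call, with it as a block.

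The adherens junction gene Cdh1 was lowest in the E11.5 PGC group. Its intensity was 262 and 228 in primordial germ cells, 575 and 347 after 3 days, 591 and 712 after 6 days and 569 and 505 in EG cells. Every later array was brighter than both E11.5 PGC arrays, and the Day3, Day6 and EG groups lay within a range of 347 to 712. Epcam took another course. It was bright in E11.5 PGC (2546 and 1633), Day3 (2261 and 1070) and EG (2326 and 1719), and at Day6 its intensity was 523 and 443. Both Day6 arrays lay below the 6 others, whose groups overlapped.

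Among the tight junction genes, Cldn6, a claudin known from early embryonic epithelia and pluripotent cells, peaked at Day3. Its intensity was 28.2 and 29.9 in primordial germ cells, 149 and 164 after 3 days, 17.8 and 24.8 after 6 days and 49.4 and 29.2 in EG cells. The 2 Day3 arrays were the brightest of the 8, and no array of another group came near them. Cldn7, the claudin that Epcam binds, had intensities of 151 and 72.1 in primordial germ cells, 187 and 39.5 after 3 days, 42.8 and 23.8 after 6 days and 128 and 109 in EG cells, and its replicates differed by 4.74 times at Day3. Cldn4, a sealing claudin, spanned a narrower range: 191 and 201 in primordial germ cells, 318 and 345 after 3 days, 239 and 275 after 6 days and 367 and 301 in EG cells. Ocln was dim throughout, at 4.5 and 1.96 in primordial germ cells, 12 and 10.9 after 3 days, 11.6 and 14.3 after 6 days and 9.37 and 9 in EG cells. The E11.5 PGC arrays were the lowest for both genes. One of the Ocln values lay under the 10th percentile of all intensities (2.27), so the size of its rise is not exact.

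The desmosome gene Dsp was bright in the first groups and dim afterwards: 98.8 and 109 in primordial germ cells, 114 and 75.9 after 3 days, 10.2 and 21.9 after 6 days and 27.2 and 28.3 in EG cells. The Day6 and EG groups did not overlap with the others or with each other. In the comparisons below, 30.6% to 64.2% of all probes tested had groups that did not overlap. Spint1 had an intensity of 19.6 and 9.54 in primordial germ cells, 171 and 82.3 after 3 days, 167 and 166 after 6 days and 178 and 234 in EG cells. Both E11.5 PGC arrays lay below the 6 others. The splicing regulator Esrp1 had 545 and 554 in primordial germ cells, 164 and 71.4 after 3 days, 7.63 and 6.15 after 6 days and 147 and 48.9 in EG cells. On E11.5 PGC arrays Esrp1 stood above 90.7% and 92.0% of the probes measured there, and on Day6 arrays above 32.3% and 27.9%. The Day6 arrays lay below all others, the E11.5 PGC arrays above all others, and the EG arrays overlapped with those of Day3. RNA was taken from pools of cells, where fewer cells with a transcript and less of it per cell cannot be told apart.

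**Figure D1:**
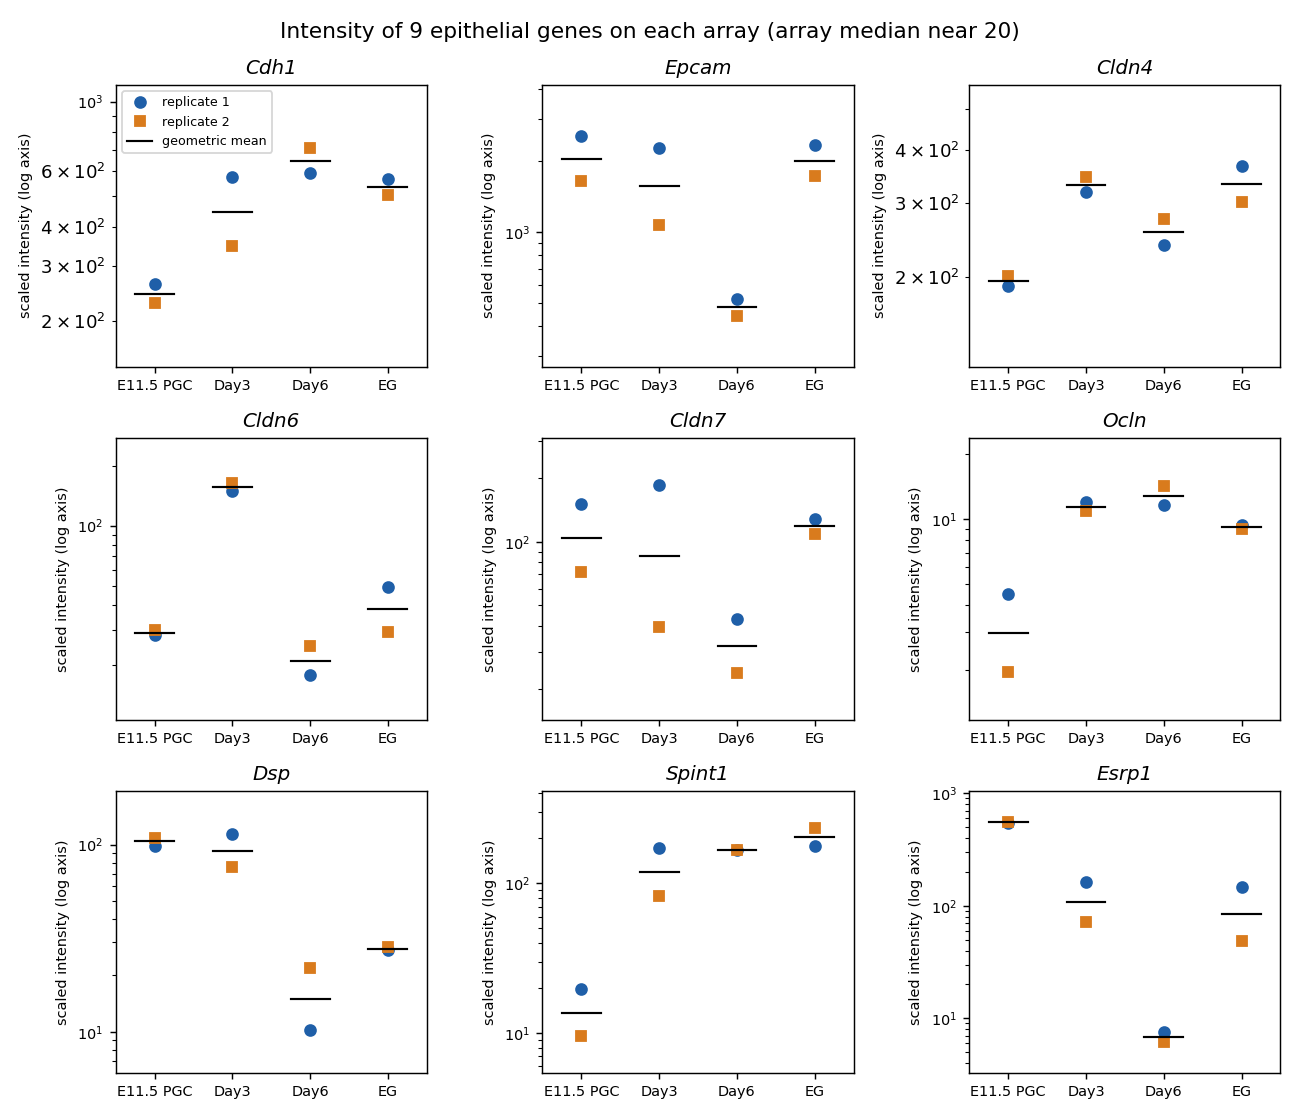
Scaled intensity (log axis; array median near 20) of the 9 genes with a probe on each of the 8 arrays, by group; circles are replicate 1, squares replicate 2 and bars the geometric mean. Esrp1, Epcam, Cldn7, Cldn6 and Dsp have their lowest array at Day6 (Esrp1 7.63 and 6.15), while Cdh1, Ocln and Spint1 have theirs in E11.5 PGC (Spint1 19.6 and 9.54).

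The promoters of Epcam, Cldn7 and Cldn6 are shown because the dimmest array of each of these junction genes is one of Day6 and the window holds a known repressor motif 2 times. Dsp was dimmest at Day6 as well, and its window holds the motif 1 time, at position 3. Each window runs from 250 bases before to 50 bases after a RefSeq transcription start (build GRCm38.p6) and is written on the strand of the gene. Capitals mark the E-box CACCTG or its reverse complement CAGGTG, letters known as a binding motif of the Zeb and Snai repressors of epithelial genes and of some helix-loop-helix factors. The windows are chr17:87635729-87636028 for Epcam, chr11:69965171-69965470 for the second listed start of Cldn7, and chr17:23679115-23679414 for Cldn6, all on the plus strand.
Epcam: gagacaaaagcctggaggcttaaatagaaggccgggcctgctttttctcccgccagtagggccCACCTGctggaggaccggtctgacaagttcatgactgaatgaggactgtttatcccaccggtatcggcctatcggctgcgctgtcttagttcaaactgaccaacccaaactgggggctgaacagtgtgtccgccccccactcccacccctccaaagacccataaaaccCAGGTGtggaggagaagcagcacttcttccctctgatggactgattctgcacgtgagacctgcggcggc
Cldn7: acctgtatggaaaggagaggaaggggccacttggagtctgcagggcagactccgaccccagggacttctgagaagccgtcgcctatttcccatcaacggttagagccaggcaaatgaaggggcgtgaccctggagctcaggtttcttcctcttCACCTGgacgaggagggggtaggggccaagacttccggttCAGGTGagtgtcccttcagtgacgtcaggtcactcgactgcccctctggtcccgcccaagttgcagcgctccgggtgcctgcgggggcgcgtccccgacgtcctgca
Cldn6: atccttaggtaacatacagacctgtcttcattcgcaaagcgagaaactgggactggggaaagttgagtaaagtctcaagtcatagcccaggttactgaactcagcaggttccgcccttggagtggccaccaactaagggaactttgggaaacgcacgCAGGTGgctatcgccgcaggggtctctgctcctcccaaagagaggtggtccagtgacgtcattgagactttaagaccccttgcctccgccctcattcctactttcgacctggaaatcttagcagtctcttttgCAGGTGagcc
In the Epcam window the motif begins at positions -187 and -19 from the start site, in Cldn7 at -97 and -57 (the window of its first listed start holds 0), and in Cldn6 at -93 and 40. Of the 8 genes of the list found in the promoter table, 7 held the motif in at least 1 window and 5 held it 2 times in 1 window. Spint1 held none in its window. Cdh1 and Esrp1 are not in that table, so these counts do not cover them. The 8 genes include Cldn3, which has no named probe. Of 13127 genes on the arrays found in the table, 22.2% held it at all and 3.4% held it 2 times in 1 window. Cldn4 (-14 and 11) and Ocln (-213 and -68 at its second start) held it 2 times although neither was low at Day6. These are matches of letters, and no binding was measured.

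Day3 was set against E11.5 PGC to ask which epithelial genes moved first in culture. On the log2 scale the change of Spint1 was 3.12 ± 0.47 (SE; n = 2 per group; adjusted p = 0.026) and that of Cldn6 2.43 ± 0.34 (adjusted p = 0.02). These were the genes that rose, 2 of the 9 genes tested, and 0 fell; over all 20678 probes tested, 1.33% were called higher and 0.754% lower. With the array series as a block 3 of 9 rose, Ocln (1.95 ± 0.35, adjusted p = 0.026) besides Spint1 and Cldn6, and Esrp1 fell (-2.34 ± 0.54, adjusted p = 0.049), against 4.34% of probes called higher and 4% lower. Cdh1 changed by 0.87 (95% interval 0.11 to 1.63) and Cldn4 by 0.76 (0.15 to 1.37), with adjusted p-values of 0.275 and 0.235 and no call in either model. Epcam (-0.39, interval -1.40 to 0.62), Cldn7 (-0.28, -2.01 to 1.45) and Dsp (-0.16, -1.12 to 0.81) had intervals that span 0. The median change of the 9 genes was 0.76, against -0.13 for all probes. The calls depended on single arrays. Without either E11.5 PGC array or either Day3 array neither Spint1 nor Cldn6 was called, and without either EG array Cldn6 was the only one called; over all 8 such fits the adjusted p lay between 0.0221 and 0.144 for Cldn6 and between 0.032 and 0.17 for Spint1. With the block the count was 0 without either Day3 array and 1 without E11.5 PGC replicate 2. The blocked call of Esrp1 held in 2 of the 8 such fits, without either EG array, and was not made with quantile normalization; that of Ocln held in 3 of 8.

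Day6 was set against Day3 to follow the later days in culture. In the blocked model 4 of 9 genes fell and 0 rose. The log2 change was -3.98 ± 0.54 for Esrp1 (SE; n = 2 per group; adjusted p = 0.0306), -2.90 ± 0.29 for Cldn6 (0.0205), -2.64 ± 0.38 for Dsp (0.0338) and -1.69 ± 0.27 for Epcam (0.0429). In that model 0.829% of all 20015 probes were called lower and 0.974% higher. Without the block limma called 0 of the 9 genes, and 0% of all probes in either direction; Esrp1, Cldn6, Dsp and Epcam each had an unadjusted p under 0.05 there, and 1783 probes did. Trend and robust variance, or a pseudocount, gave 1 call each. The 4 falls stood in both array series: the values for A and B were -4.43 and -3.54 for Esrp1, -3.07 and -2.72 for Cldn6, -3.48 and -1.79 for Dsp, and -2.11 and -1.27 for Epcam. Cdh1 (0.54, interval -0.22 to 1.30), Ocln (0.17, -0.79 to 1.12) and Spint1 (0.49, -0.62 to 1.60) gave no call. Cldn7 had -1.43 ± 0.35 with the block, without a call (adjusted p = 0.109). The median change of the 9 genes was -1.43, against -0.05 for all probes. The blocked count was 0 without any 1 of the Day3 or Day6 arrays, and 2 (Esrp1 and Cldn6) without any 1 of the E11.5 PGC or EG arrays.

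**Figure D2:**
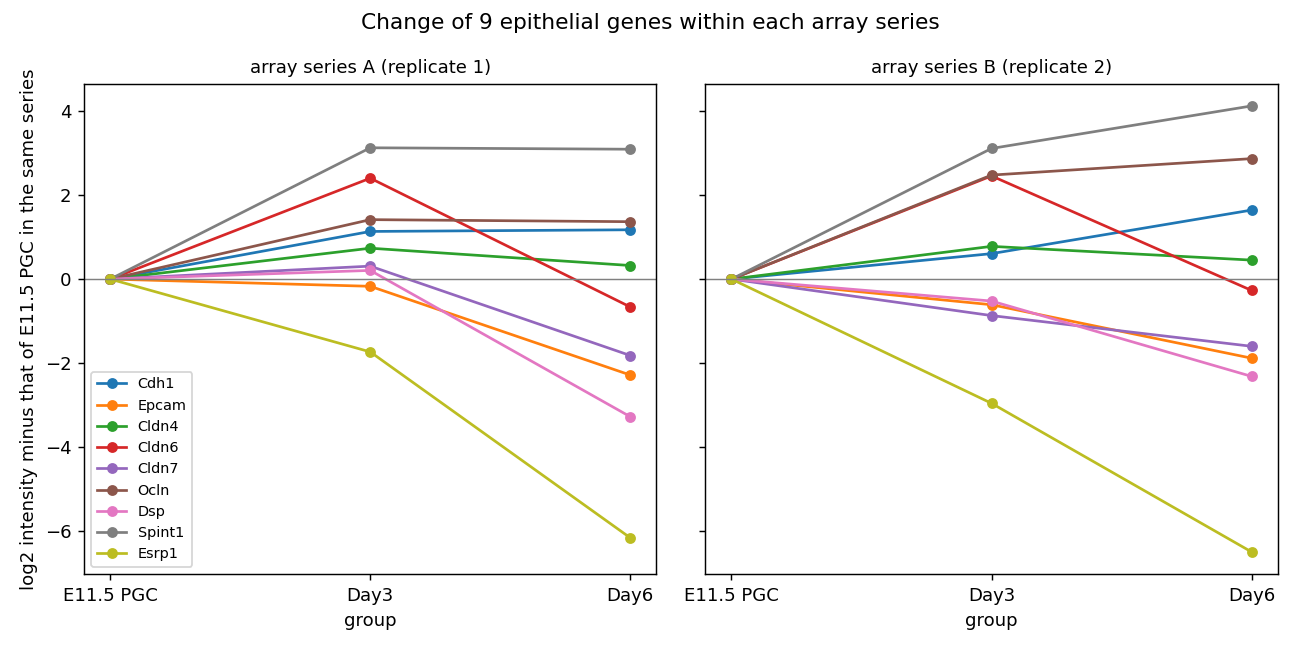
Log2 intensity of each gene minus that of E11.5 PGC in the same array series (vertical axis), at Day3 and Day6; the left panel is series A (replicate 1) and the right one series B (replicate 2), with 1 line per gene and 1 array per point. Esrp1 ends at -6.16 and -6.49, Spint1 at 3.09 and 4.12, and Cldn6 is at 2.40 and 2.45 at Day3 and below 0 at Day6 in both.

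Day6 was set against E11.5 PGC to show the sum of the culture days, and the list split evenly. Spint1 rose (log2 change 3.61 ± 0.47, SE; n = 2 per group; adjusted p = 0.00625), as did Ocln (2.11 ± 0.41, 0.0235; 1.55 with a pseudocount of 2) and Cdh1 (1.41 ± 0.32, 0.0415). Esrp1 fell (-6.33 ± 0.58, 0.00232), which makes it 80.2-fold lower at Day6, and so did Dsp (-2.79 ± 0.41, 0.0092) and Epcam (-2.08 ± 0.43, 0.0294). Esrp1 was dim at Day6 (7.63 and 6.15), and its change was -5.96 with a pseudocount of 2, so the size of its fall is not exact. So 3 of 9 rose and 3 fell, where 4.34% of 20136 probes were called higher and 4.28% lower. With the array series as a block Cldn7 fell as well (-1.71 ± 0.35, adjusted p = 0.0177), which gives 3 higher and 4 lower beside 9.5% and 14.3% of all probes. Cldn4 (0.39, interval -0.22 to 1.00) and Cldn6 (-0.47, -1.27 to 0.33) were not called. The median change of the 9 genes was -0.47, against -0.16 for all probes. The calls of Spint1 and Esrp1 stood without any 1 of the 8 arrays, with adjusted p-values up to 0.0466 and 0.0277. That of Dsp was lost without either E11.5 PGC array (up to 0.0689), and those of Cdh1 and Epcam without any 1 of the E11.5 PGC, Day6 or EG arrays (up to 0.184 and 0.164). The call of Ocln was lost without E11.5 PGC replicate 2 and without any 1 of the Day6 or EG arrays (up to 0.09). With the block Esrp1, Dsp, Epcam, Spint1 and Ocln were called in all 8 such fits, Cdh1 and Cldn7 in 5 each. Day6 replicate 1 is the array with the highest fibroblast marker sum, and leaving it out leaves 1 Day6 array. The changes were then -6.48 for Esrp1, 3.60 for Spint1, 2.26 for Ocln, 1.54 for Cdh1, -2.20 for Epcam and -2.24 for Dsp. The part of fibroblasts in the changes was not tested. The germ cell marker sum was lower too, with 1461 and 3622 at Day6 against 17690 and 10553 in E11.5 PGC. Its largest part was Dppa3 (456 and 1648 against 10543 and 5303). Prdm14 did not leave its E11.5 PGC range (135 and 135 against 172 and 123), and Kit had 136 and 313 against 404 and 331. Each marker but Prdm14 lay lower on both Day6 arrays than on either E11.5 PGC array. The part of these markers in the changes was not tested.

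EG cells were set against Day6 to see which of the genes differ once cells are pluripotent EG cells. Without the block limma called 0 of the 9 genes; 0.139% of 20103 probes were called higher and 0.0298% lower, and 2618 had an unadjusted p under 0.05, among them Epcam, Esrp1, Cldn6 and Cldn7. With the array series as a block Esrp1 was higher in EG (3.38 ± 0.58 on the log2 scale, SE; n = 2 per group) and so was Epcam (1.73 ± 0.30), both with an adjusted p of 0.0471, so that 2 of 9 were higher and 0 lower beside 1.25% and 0.716% of all probes. That count was 0 without any 1 of the 8 arrays and 1 with quantile normalization. All EG arrays lie in series A, so a blocked value here takes the gap between series to be equal for each group. For Epcam the EG arrays had 2326 and 1719, against 523 and 443 at Day6, and for Cldn7 128 and 109, against 42.8 and 23.8. The changes of the other genes without the block were 1.89 for Cldn7 (interval 0.16 to 3.62), 0.89 for Dsp (-0.07 to 1.86), 0.86 for Cldn6 (0.06 to 1.66), 0.38 for Cldn4 (-0.24 to 0.99), 0.29 for Spint1 (-0.81 to 1.40; -0.06 with the block), -0.27 for Cdh1 (-1.04 to 0.49) and -0.48 for Ocln (-1.44 to 0.47). The median over the 9 genes was 0.86, against -0.01 for all probes.

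EG cells were also set against E11.5 PGC, the ends of the conversion. Higher in EG were Spint1 (log2 change 3.90 ± 0.47, SE; n = 2 per group; adjusted p = 0.00512) and Ocln (1.63 ± 0.41, 0.0464; 1.14 with a pseudocount). Lower were Esrp1 (-2.69 ± 0.58, 0.0301) and Dsp (-1.90 ± 0.41, 0.0297). The median change of the 9 genes was 0.39, against -0.16 for all probes. These 2 higher and 2 lower genes of 9 stand beside 5.57% of 20761 probes called higher and 5.61% lower. With the block Cdh1 (1.02 ± 0.29, adjusted p = 0.0493) and Cldn4 (0.83 ± 0.22, 0.0372) were higher too, though Cldn4 lost that call without any 1 array and Cdh1 without any 1 array of E11.5 PGC, Day6 or EG. That gives 4 of 9 higher, beside 9.24% of all probes, and the same 2 lower, beside 14.4%. Epcam changed by -0.03 (interval -1.04 to 0.98) and Cldn7 by 0.19 (-1.54 to 1.92; -0.51 with the block); both intervals allow changes past 2-fold. The call of Spint1 was lost without EG replicate 2 (0.0624) and that of Esrp1 without either E11.5 PGC array or EG replicate 2 (up to 0.173). Dsp lost its call without any 1 of the E11.5 PGC or EG arrays (up to 0.171), and Ocln without any array but E11.5 PGC replicate 1 (up to 0.222). Marker sums differed between these groups too: coelomic epithelium had 156 and 192 in EG against 40.4 and 52.4 in E11.5 PGC, fibroblasts 1060 and 372 against 113 and 162, and germ cells 2133 and 1766 against 17690 and 10553. Their part in the changes was not tested. This comparison shares its EG or E11.5 PGC arrays with each of the others except that of Day6 against Day3.

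**Figure D3:**
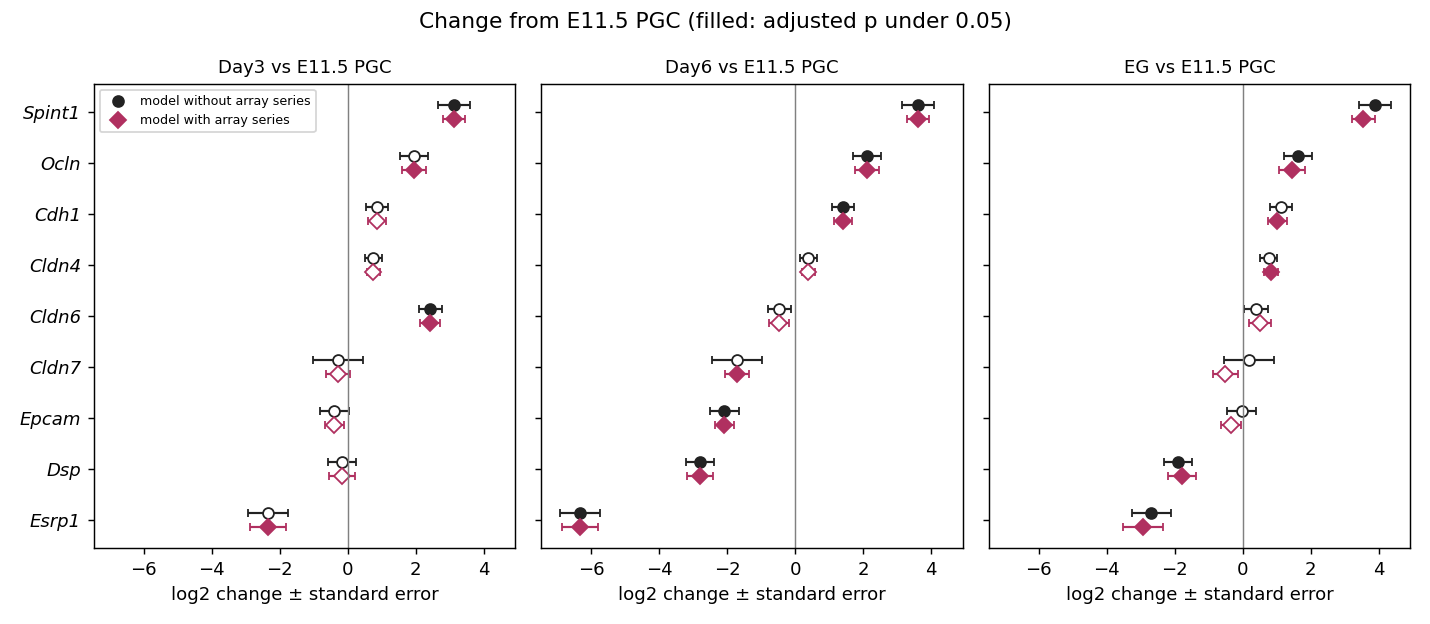
Log2 change from E11.5 PGC (horizontal axis, with standard error) of the 9 genes at Day3, Day6 and in EG; circles are the model without the array series, diamonds the model with it, and filled symbols have an adjusted p under 0.05. At Day6 Spint1, Ocln and Cdh1 lie at 3.61, 2.11 and 1.41 and Dsp, Epcam and Esrp1 at -2.79, -2.08 and -6.33.

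Over the 8 arrays the log2 levels of some of the genes ran together. Cdh1, Ocln and Spint1 had Pearson correlations of 0.87 to 0.93 with each other, Epcam correlated with Cldn7 (0.93) and Esrp1 (0.89), and Cldn7 with Esrp1 (0.72). Between Cdh1, Ocln or Spint1 on one side and Epcam, Cldn7 or Esrp1 on the other the values ran between -0.77 (Cdh1 and Esrp1) and -0.11 (Cldn7 and Spint1). Dsp correlated with Esrp1 (0.83) and Cldn4 with Spint1 (0.75), while Cldn6 had no value above 0.62 (with Cldn4) and stood at -0.03 with Cdh1. These describe 8 arrays in 4 groups that share the array series. Among 4022 other probes with a gene name, a mean intensity over 20 and a standard deviation of the log2 level over 0.5, those most like Cdh1 in pattern were Nme4 (r = 0.983), Llgl2 (0.976) and Stmn3 (0.974). Llgl2, a gene of basolateral polarity, had 192 and 301 at Day6, against 110 and 90.1 in E11.5 PGC. Most like Epcam were Fam241b (0.963), Cutc (0.957) and Dync2li1 (0.957), and most like Esrp1 were Enpp3 (0.986), Dtwd1 (0.979) and Bcl2l11 (0.974). Enpp3 had an intensity of 447 and 430 in primordial germ cells, 118 and 107 after 3 days, 15.3 and 14.3 after 6 days and 134 and 98.3 in EG cells.

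Other parts of the same junctions were read from further lists. Of 34 further tight junction and polarity genes, 24 were tested between Day6 and E11.5 PGC: 0 rose and 4 fell (8 with the block), beside 4.34% of all probes called higher and 4.28% lower (9.5% and 14.3% with the block), with a median change of -0.61 against -0.16 for all probes. Cldn5, a claudin best known from endothelium, fell (-4.12 ± 0.36), as did the polarity gene Crb3 (-3.20 ± 0.56) and Lsr, which marks tricellular contacts (-1.49 ± 0.35), and with the block the scaffold gene Tjp3 (-1.65 ± 0.37). The 6 endothelial markers, Cldn5 among them, summed to 94.6 and 193 at Day6 against 319 and 485 in E11.5 PGC. Most of that difference lay in Pecam1 (61.2 and 138 against 184 and 377) and in Cldn5 itself (4.11 and 6.87 against 105 and 80.7). Kdr had 19.6 and 21.8 against 23.7 and 18.2, and Tek 7.02 and 21.5 against 1.74 and 1.91. Emcn and Cdh5 were dim or missing. The part of endothelial cells in the fall of Cldn5 was not tested. Crb3 had 93.1 and 85.3 in primordial germ cells, 87.2 and 46.8 after 3 days, 6.96 and 13.5 after 6 days and 95.9 and 36.4 in EG cells. Tjp3 had 64.2 and 56.5, 155 and 66.6, 22 and 16.8, and 133 and 74.6 in the same order, and Lsr had 42.1 and 33.3, 35.3 and 31, 12.4 and 14.2, and 93.3 and 51. Each of the 3 had its lowest arrays at Day6, like Epcam and Esrp1, and Lsr was higher in EG than at Day6 with the block, by 2.32 ± 0.35 (adjusted p = 0.0384).

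The desmosome and keratin list (11 of 17 tested) had 1 gene that rose and 1 that fell at Day6 against E11.5 PGC (2 and 3 with the block), where the shares over all probes were again 4.34% and 4.28% (9.5% and 14.3%). Pkp2 and Pkp3 encode plakophilins, plaque proteins that bind desmoplakin. Pkp2 fell (-2.47 ± 0.41, adjusted p = 0.0136), with 20 and 36.4 at Day6 against 116 and 193 in E11.5 PGC. Pkp3 rose (2.27 ± 0.35, 0.0111), with 29.6 and 22.6 at Day6 against 6.92 and 4.15 in E11.5 PGC, and had 73.1 and 102 in EG. Perp, a desmosome membrane protein and p53 target, rose with the block (1.70 ± 0.30). In the adherens junction list (16 of 17 tested) 1 rose and 1 fell (3 and 1 with the block), beside the same shares of all probes. Jup, the plakoglobin gene, rose (1.60 ± 0.31) and the nectin gene Nectin3 fell (-1.65 ± 0.27). The median change was -0.21 over the desmosome list and 0.10 over the adherens list, against -0.16 for all probes. Ctnnb1, the beta-catenin gene, had 852 and 651 at Day6 against 902 and 673 in E11.5 PGC.

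The proteases that Spint1 inhibits were measured too. St14, the matriptase gene, had 150 and 95.9 in primordial germ cells, 542 and 212 after 3 days, 239 and 260 after 6 days and 392 and 459 in EG cells, and was higher in EG than in E11.5 PGC with the block (1.51 ± 0.38, adjusted p = 0.0322). Prss8, the prostasin gene, had 76.1 and 22.6 in EG against 7.34 and 5.74 in E11.5 PGC, a change of 2.67 ± 0.54 (0.0239). Of the 9 genes of that list tested between Day6 and E11.5 PGC 0 were called by limma in either model. Over all probes 4.34% were called higher and 4.28% lower, or 9.5% and 14.3% with the block. Without the block a count of 0 in a list of this size is near the background. An unadjusted p under 0.05 was given by limma to 0 of the 9 without the block and 1 with it. For all 20136 probes these counts were 4822 and 7630. The list median was -0.13, against -0.16 for all probes.

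**Figure D4:**
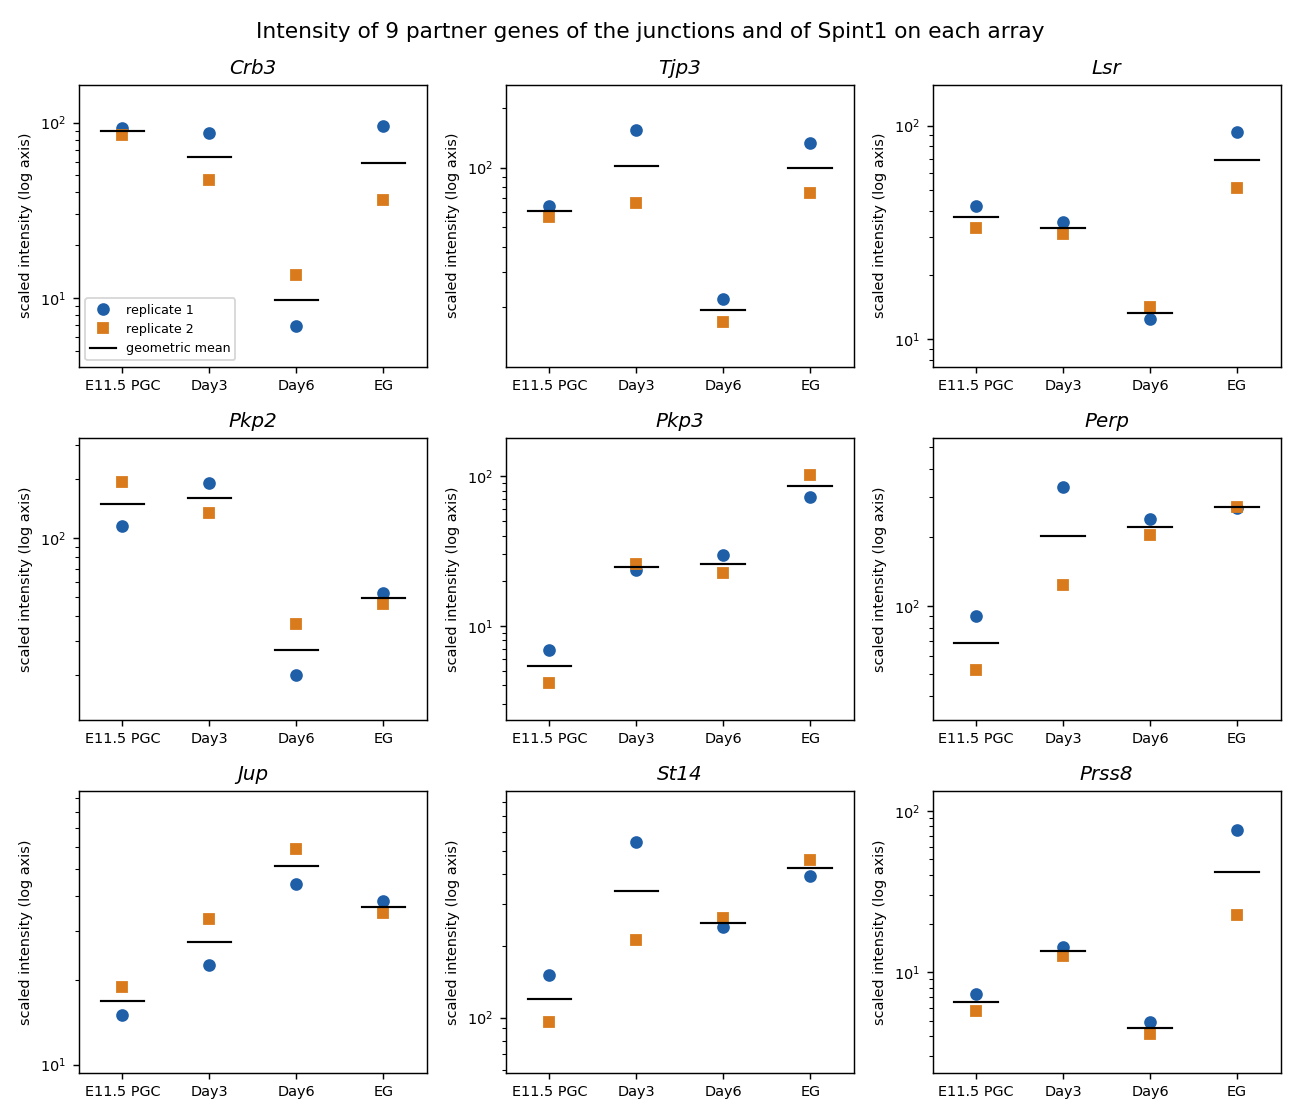
Scaled intensity (log axis) of 9 partner genes on each of the 8 arrays, by group; circles are replicate 1, squares replicate 2 and bars the geometric mean. Crb3, Tjp3, Lsr and Pkp2 have their lowest arrays at Day6 (Crb3 6.96 and 13.5), and Pkp3, Perp, Jup and St14 their lowest in E11.5 PGC (Pkp3 6.92 and 4.15).

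Esrp2, the paralog of Esrp1 with the same kind of splicing activity, stayed dim, with 12 and 9.79 in primordial germ cells, 20.3 and 16.3 after 3 days, 13.1 and 14.9 after 6 days and 12.4 and 6.07 in EG cells, and gave no call (Day6 against E11.5 PGC 0.37 ± 0.38). Esrp2 belongs to a list of epithelial splicing and transcription factor genes, 15 of 19 tested at Day6 against E11.5 PGC (median change -0.14). Of these, Elf3 rose (1.37 ± 0.28, adjusted p = 0.028) and 0 fell, where 4.34% of all probes were called higher and 4.28% lower. A count of 1 in a list of this size is near the background. With the block Klf5 and the dim Grhl2 rose too (Grhl2 had 3.81 and 11.2 at Day6, against 1.56 and 0.969 in E11.5 PGC). In that model 9.5% of all probes were called higher and 14.3% lower. Of 8 tested transcripts known to be spliced by Esrp proteins, 2 fell and 0 rose at Day6 against E11.5 PGC (4 and 1 with the block), beside 4.28% of all probes lower and 4.34% higher (14.3% and 9.5% with the block). The list median was -0.99, against -0.16 for all probes. Fgfr2, whose epithelial exon Esrp proteins select, fell (-1.66 ± 0.30, 0.0188), with 12.3 and 14.6 at Day6 against 35.5 and 50.4 in E11.5 PGC, and so did the kinase gene Slk (-1.51 ± 0.34, 0.0397). Fgfr2 had 59.1 and 46.9 at Day3, where Esrp1 had 164 and 71.4. In EG cells Fgfr2 had 6.03 and 5.25, where Esrp1 had 147 and 48.9. Slk had 101 and 88.9 at Day3 and 78.2 and 67.5 in EG cells. The part of Esrp1 in these changes was not tested. The arrays give 1 value per transcript probe, and splice forms were not measured.

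The genes of the opposite, mesenchymal, state and its regulators were not called at Day6 without the block: 0 of 19 tested rose or fell against E11.5 PGC, where 4.34% of all probes were called higher and 4.28% lower, so that a count of 0 in a list of this size is near the background. The list median was 0.43, against -0.16 for all probes, and limma gave 3 of the 19 an unadjusted p under 0.05, as it did for 4822 of 20136 probes. With the block S100a4 and Fn1 rose and Tgfb1 fell, so 2 of 19 rose and 1 fell. In that model 9.5% of all probes were called higher and 14.3% lower, so these counts are also near the background. The repressors Zeb1 (73.4 and 88 at Day6 against 58.6 and 47.3 in E11.5 PGC; 0.61 ± 0.29, adjusted p = 0.256) and Snai1 (11.1 and 12 against 7.61 and 8.45; 0.52 ± 0.25, 0.257) gave no call, and Zeb2 had 3.68 and 1.77 against 3.59 and 3.42. The filament gene Vim had 1546 and 588 at Day6 against 282 and 344 in E11.5 PGC, and S100a4 had 1335 and 13.2 against 4.04 and 1.48. The brighter array of each is Day6 replicate 1, on which Esrp1 had 7.63 and Epcam 523, beside 6.15 and 443 on replicate 2; the part of the fibroblast markers in these values was not tested.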

How the data were processed

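RNA was measured on 8 one-colour arrays, labelled with Cy5 per the labels' protocols. The deposited values are linear spot intensity, which the authors scaled to an array median near 20; neither how background was corrected and values scaled nor why some are missing is given in the sources used here. Values were used as deposited and converted to log2. Of 16631 probes with 1 symbol, 12622 carried a current symbol, 3947 older ones were replaced through synonyms in the RefSeq gene table (GRCm38.p6) and 62 were kept; 6842 probes had none.

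Each probe was fitted with limma 3.58.1 (R 4.3.3) to the 4 groups together. Its moderated test was two-sided, p-values were adjusted by Benjamini-Hochberg over every probe tested in that comparison, and calls needed an adjusted value under 0.05. Probes lacking a value on any of the 4 arrays compared were left untested. The script was checked on simulated data. Deviations of replicate 1 from the group mean correlated across 19524 probes between E11.5 PGC, Day3 and Day6 (0.547 to 0.694) and not with EG (-0.0246 to 0.0611), so the array series, not the number, was used as the block. For list genes with several probes, the one of highest mean level stood for the gene. The 10 genes and the other lists were chosen with earlier results of these data known. From each other list up to 4 called genes with the largest changes are named, with partners of the 10 genes, and the 3 genes most like Cdh1, Epcam and Esrp1. Alternatives were the block, quantile normalization, a pseudocount of 2, trend and robust variance, removal of the dimmest 25% of probes, the 4 arrays of a comparison alone, and leaving out each array.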

Additional observations from a re-analysis of the deposited data

How the results depend on the processing

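The counts of called genes among the 9 are sensitive to the model and to single arrays. Without the block they were 2 (Day3 against E11.5 PGC), 0 (Day6 against Day3), 6 (Day6 against E11.5 PGC), 0 (EG against Day6) and 4 (EG against E11.5 PGC). With the array series as a replicate block they were 4, 4, 7, 2 and 6. With only the 4 arrays of the comparison they were 0 for Day3 and 2 for Day6 against E11.5 PGC. For Day6 against Day3 a pseudocount of 2 and trend and robust variance gave 1 each. Leaving out each array gave 0 to 2, 0, 2 to 6, 0 and 0 to 3 without the block. With the block, which was combined with other settings after the data were seen, it gave 0 to 3, 0 to 2, 5 to 7, 0 and 2 to 4, and quantile normalization gave 1 for EG against Day6.

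Of 630 single-gene values under these alternatives 550 kept direction and call, 50 lost the call, 19 gained it and 11 turned sign. None of those 11 was a call. Without the block 7, 9, 3, 9 and 5 of the 9 genes were not called in the comparisons, in the order above. So most of the 550 had no call to lose, and the 50 lost calls come from the smaller, called part. Spint1 in EG against Day6 was -0.06 and Cldn7 in EG against E11.5 PGC -0.51 with the block, and Epcam in EG against E11.5 PGC was 0.11 with quantile normalization. Leaving out arrays gave Epcam -0.93 to 0.15, Cldn7 -1.40 to 0.84 and Dsp -0.45 to 0.13 at Day3 against E11.5 PGC, Spint1 -0.04 to 1.02 at Day6 against Day3, and Epcam -0.35 to 0.29 and Cldn7 -0.35 to 0.72 in EG against E11.5 PGC. The cause was not tested. Each group has 2 arrays, which limits the precision, and the EG arrays lie in 1 array series only.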
